A study of Mus musculus with 6 samples.

Results

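Tox, Tox2, Nfatc1, Nfatc2, Nfatc3 and Maf encode transcription factors linked to T cell exhaustion, and their messages were compared here between Eomes+ and Eomes- CD8 T cells of one tumour model. The members are all probe sets that the platform annotation assigns to these 6 genes, 24 of the 45101 probe sets on the array: 3 for Tox, 2 for Tox2, 5 for Nfatc1, 6 for Nfatc2, 2 for Nfatc3 and 6 for Maf. Both fractions were sorted out of MCA-205 fibrosarcomas transplanted into male C57BL/6 mice that report Eomes with GFP. Cells positive for GFP were taken as Eomes+ and those negative for it as Eomes-, with 3 arrays of each. Every mouse of both groups had been given 2 antibodies, 250 ug aOX40 on days 12 and 16 against a costimulatory receptor, and 200 ug of aCTLA-4 against a checkpoint receptor on day 12, day 14 and day 16, before harvest on day 19. The comparison therefore asks how the fractions of treated tumours differ. The labels give 3 independent experiments without tying arrays to animals, so each p-value reflects only how far these arrays spread, which may be technical in part.

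NFAT proteins (Nfatc1, Nfatc2 and Nfatc3 among them) wait in the cytoplasm until T cell receptor signalling raises calcium; calcineurin, a calcium-dependent phosphatase, then removes their phosphates and they enter the nucleus. With AP-1 partners they switch on effector genes such as Il2 and Ifng. Without those partners they favour genes of exhaustion, the state of chronically stimulated T cells marked by inhibitory receptors. TOX, an HMG-box DNA-binding protein, acts downstream of NFAT and maintains the exhausted state, and its relative TOX2 acts with it. MAF, a bZIP factor, takes part in IL-10 production and in inhibitory receptor expression in T cells, and is also made by macrophages and other cells.

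Signals are on a log2 scale, so a difference of 1 is a doubling. Eomes lay at 10.38, 9.86 and 8.38 log2 on Eomes+ arrays 1, 2 and 3, against 6.85, 6.89 and 5.42 on Eomes- arrays 1, 2 and 3, so the groups did not overlap and the sort matches its labels. The T cell genes Cd3e (11.78 to 12.93) and Cd8a (11.95 to 13.55) were bright on all 6 arrays. RNA of other cells differed between arrays of the same fraction. Fibrosarcoma and fibroblast markers (22 genes) averaged 8.98, 10.73 and 11.56 log2 in Eomes+, against 8.81, 9.85 and 11.63 in Eomes-. Macrophage markers (20 genes) averaged 8.76, 10.20 and 11.05 in Eomes+, against 8.47, 9.52 and 11.04 in Eomes-. T cell identity genes (16) averaged 11.92, 11.73 and 10.69 in Eomes+, against 12.07, 12.06 and 10.79 in Eomes-. Array 3 of each fraction thus combined the lowest T cell signal with the highest signal of other cells. In such bulk samples fewer cells of a type and less RNA per cell cannot be told apart.

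**Figure D1:**
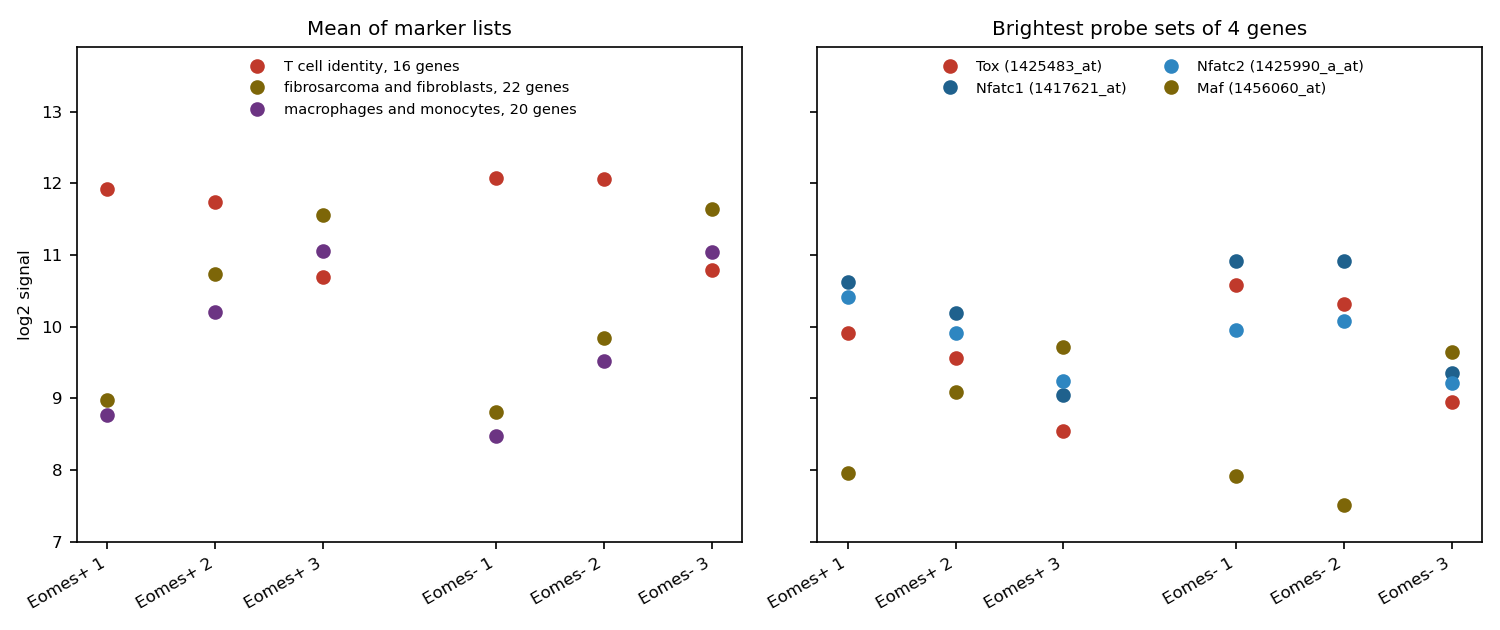
Each point is 1 array (x axis), in log2 signal (y axis): left, the mean of 3 marker lists; right, the brightest probe set of Tox, Nfatc1, Nfatc2 and Maf. On array 3 of each fraction Tox, Nfatc1 and Nfatc2 were lowest, as was the T cell list, while Maf was highest, as were the fibroblast and macrophage lists.

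Testing required a signal over the filter level, the 40th percentile of each array (5.70 to 5.72 log2), on 3 or more of the 6 arrays. This held for 21 of the 24 members: 3 of Tox, 5 of Nfatc1, 6 of Nfatc2, 2 of Nfatc3 and 5 of Maf, with both Tox2 probe sets and 1 of Maf left as values only. By limma, with p adjusted over all 27766 tested probe sets, 0 of the 21 members passed 0.05 (adjusted p = 1.00 for each). The background was 0% of all probe sets, and 0 members had an unadjusted p under 0.05, against 3.37% of all tested. Eomes, the gene used for the sort, did not pass either, at 3.15 log2 (SE 0.63, limma unadjusted p = 0.00175). Failing this threshold therefore does not show that a member is unchanged. Eomes+ and Eomes- arrays overlapped for all 21 members, whereas the groups did not overlap for 8.06% of all tested probe sets (Eomes+ lower for 5.14% and higher for 2.92%). The mean was lower in Eomes+ for 10 members and higher for 11.

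Tox had the lower mean in Eomes+ cells at each of its 3 probe sets. Probe set 1425483_at read 9.91, 9.57 and 8.54 log2 on Eomes+ arrays 1, 2 and 3, against 10.59, 10.31 and 8.94 on Eomes- arrays 1, 2 and 3. Eomes- arrays 1 and 2 lay above every Eomes+ array, but Eomes- array 3 lay below Eomes+ arrays 1 and 2, so the groups overlapped. Between arrays of the same number, Eomes+ was the lower each time, though no label states that these arrays are pairs. The means were 9.34 ± 0.71 in Eomes+ and 9.95 ± 0.88 in Eomes- (SD, n = 3 each), a difference of -0.61 log2 (SE 0.53, 95% interval -1.88 to 0.66; limma adjusted p = 1.00).

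Probe set 1425484_at gave the largest Tox difference, with 8.65, 8.17 and 6.05 log2 on the Eomes+ arrays, against 9.75, 9.15 and 7.44 on the Eomes- arrays. The pattern of overlap was the same: Eomes- arrays 1 and 2 were highest and Eomes+ array 3 lowest of the 6. Eomes+ was again the lower between arrays of the same number. The difference was -1.15 log2 (SE 0.84, 95% interval -3.16 to 0.85; limma adjusted p = 1.00), a signal 2.23-fold lower in Eomes+. Probe set 1442039_at had 7.45, 7.81 and 6.99 log2 on the Eomes+ arrays, against 8.49, 8.42 and 6.78 on the Eomes- arrays. Here Eomes- array 3 was the lowest of all 6, so Eomes+ was not the lower between the arrays numbered 3. The difference was -0.48 log2 (SE 0.52). With arrays left out, the difference of 1425483_at lay between -1.11 (without Eomes- array 3) and -0.21 (without Eomes+ array 3). All 3 Tox probe sets kept a lower Eomes+ mean in each of those fits. An alternative fit with the replicate number as a block gave 1425484_at an SE of 0.23 (limma unadjusted p = 0.00155, adjusted p = 0.221). For 1425483_at the SE was 0.17 (limma unadjusted p = 0.00918) and for 1442039_at 0.31 (limma unadjusted p = 0.163). In that fit 2748 of all 27766 tested probe sets had an unadjusted p under 0.05.

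Set against the T cell list of the same array, Tox separated the fractions at one probe set. The log2 signal of 1425483_at minus the mean of the 16 T cell identity genes was -2.01, -2.17 and -2.15 on the Eomes+ arrays, against -1.48, -1.74 and -1.85 on the Eomes- arrays. On this scale every Eomes+ array lay below every Eomes- array, with a difference of -0.41 log2 (SE 0.44; limma adjusted p = 1.00 with all probe sets put on the same scale). On that scale 2 of the 21 tested members had groups that did not overlap, against 3.53% of all tested probe sets, and this one was the 1 with lower Eomes+ values, against 1.11%. Probe set 1425484_at still overlapped, at -3.27, -3.56 and -4.64 against -2.32, -2.91 and -3.36. So did 1442039_at, at -4.47, -3.93 and -3.70 against -3.58, -3.63 and -4.01, where Eomes- array 3 lay below Eomes+ arrays 2 and 3. The rescaling moved the median difference of all probe sets by 0.19 log2.

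Markers of CD4 and regulatory T cells, which can express Tox and Maf, were read beside these values. Their mean over 9 genes was 8.61, 8.34 and 8.13 log2 on the Eomes+ arrays, against 9.18, 9.47 and 8.66 on the Eomes- arrays, and 8 of 9 genes had the lower mean in Eomes+. Over all tested genes the Eomes+ mean was lower for 52.6%. By limma 0 of the 9 passed. The 2 with an unadjusted p under 0.05, against 3.13% of all tested genes, were Capg and Cd40lg. Cd40lg was below the filter level on every Eomes+ array and was tested through the Eomes- arrays alone, so its direction adds no weight. It is still part of the mean over 9 genes, of the 8 and of the 2, and these were not computed without it. The defining genes Cd4 (6.74 to 7.36 in Eomes+ and 7.10 to 7.58 in Eomes-) and Foxp3 (7.25 to 7.81 and 7.80 to 8.19) were above the filter level on all arrays. The part of such cells in the Tox values was not tested.

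**Figure D2:**
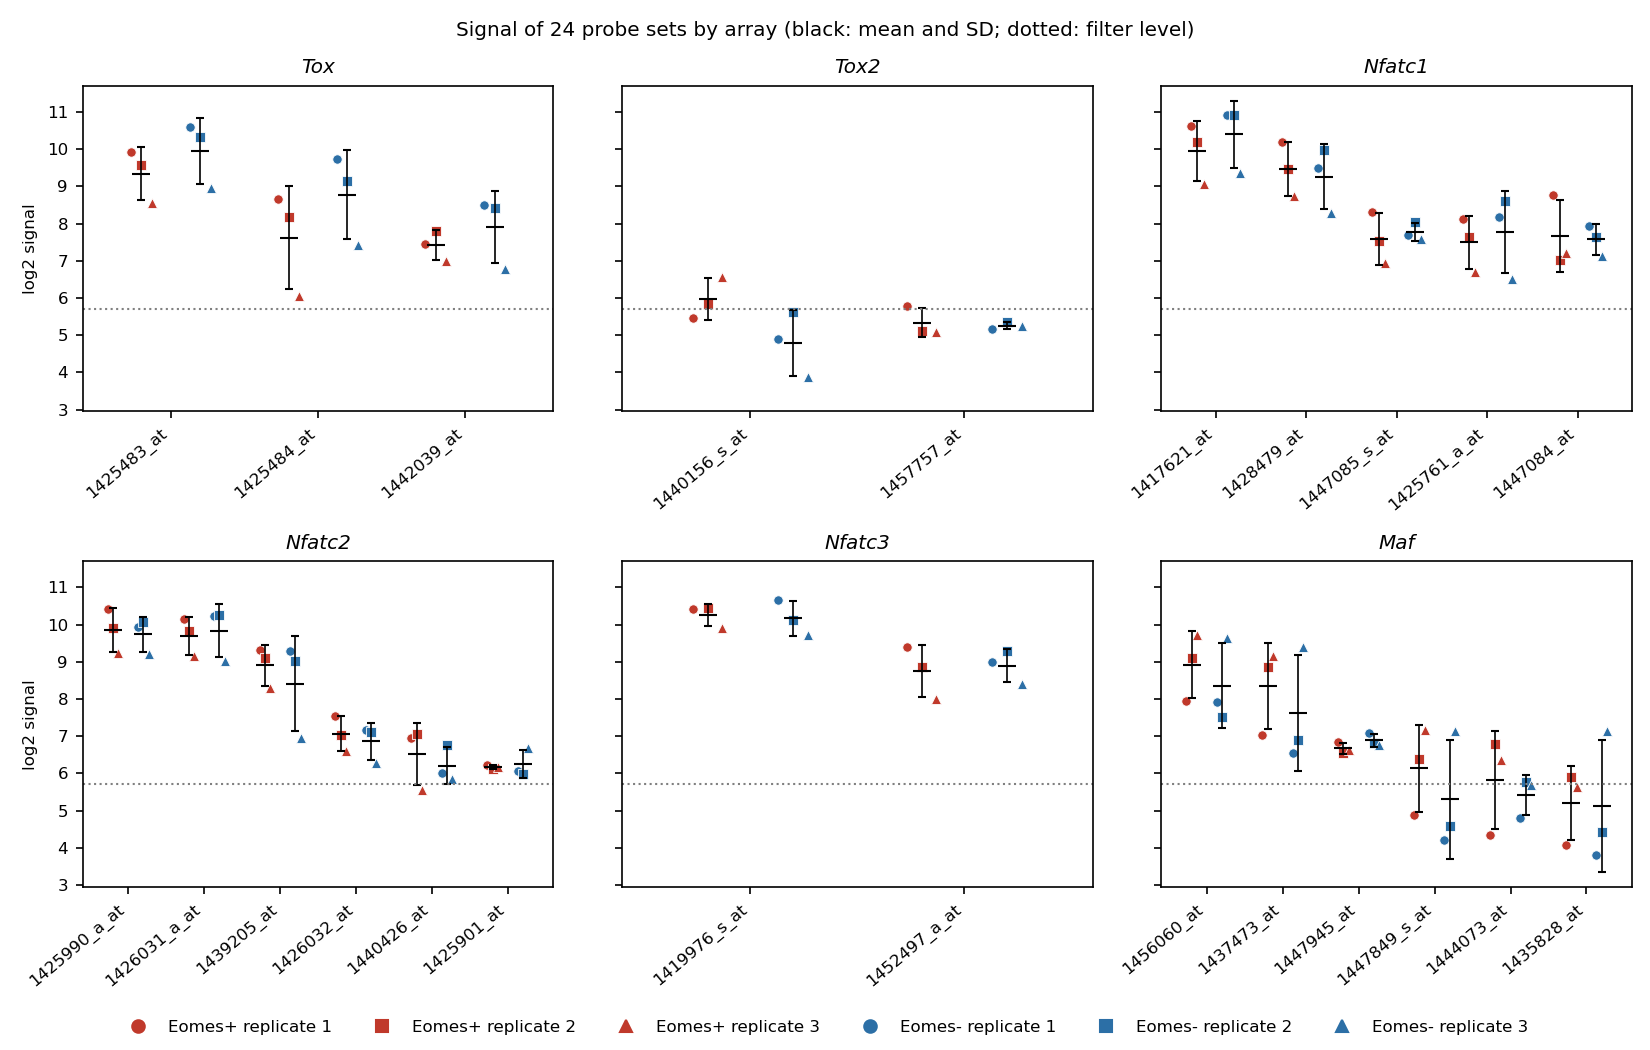
Log2 signal (y axis) of the 24 member probe sets (x axis), grouped by gene, with Eomes+ arrays in red left of Eomes- arrays in blue, marker shape for the replicate number, black bars for mean and SD (n = 3), and a dotted line at the mean filter level. The groups overlap at each of the 21 tested probe sets, and Tox2 stays near or below the line.

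Tox2 was dim in both fractions. Probe set 1440156_s_at read 5.46, 5.85 and 6.57 log2 on the Eomes+ arrays, against 4.89, 5.63 and 3.87 on the Eomes- arrays, and was above the filter level on 2 Eomes+ arrays and 0 Eomes- arrays. Probe set 1457757_at had 5.78, 5.12 and 5.09, against 5.17, 5.35 and 5.26. These signals lie where background compresses differences, so no fold is given. When all probe sets were tested without a filter, neither passed (limma adjusted p = 1.00 for each). Of the other TOX genes, Tox3 lay between 2.43 and 2.83 log2 on all 6 arrays, below the filter level, and Tox4, a widely expressed relative, differed by 0.16 log2 (SE 0.42).

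Among the NFAT genes, Nfatc1, also called NFAT2 and the member that T cell activation induces, gave mixed directions over its 5 probe sets. Its brightest, 1417621_at, read 10.62, 10.18 and 9.05 log2 on the Eomes+ arrays, against 10.92, 10.91 and 9.35 on the Eomes- arrays. As with Tox, Eomes- arrays 1 and 2 were highest and both arrays numbered 3 were lowest. The difference was -0.44 log2 (SE 0.56, 95% interval -1.78 to 0.90; limma adjusted p = 1.00), and it was 0.01 without Eomes+ array 3. The second brightest, 1428479_at, differed the other way by 0.21 log2 (SE 0.53), with 10.18, 9.47 and 8.75 against 9.49, 9.98 and 8.28. The other 3 differed by -0.27 (1425761_a_at), -0.18 (1447085_s_at) and 0.09 (1447084_at) log2. Nfatc1 therefore showed no common direction across its probe sets.

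Nfatc2, also called NFAT1, the NFAT protein already present in resting T cells, gave small differences of opposite sign at its 2 brightest probe sets. Probe set 1425990_a_at had 10.41, 9.90 and 9.23 log2 on the Eomes+ arrays, against 9.95, 10.08 and 9.21 on the Eomes- arrays, a difference of 0.10 (SE 0.38, 95% interval -0.79 to 1.00). Probe set 1426031_a_at had 10.14, 9.82 and 9.14, against 10.23, 10.26 and 9.02, a difference of -0.13 (SE 0.42, 95% interval -1.14 to 0.88). Both intervals leave room for a difference in either direction.

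Over the 6 Nfatc2 probe sets the differences ran from -0.13 to 0.49 log2, with 4 higher and 2 lower in Eomes+. The largest, 1439205_at, had 9.32, 9.10 and 8.29 on the Eomes+ arrays, against 9.28, 9.02 and 6.95 on the Eomes- arrays, and turned to -0.25 without Eomes- array 3. On the scale relative to T cell genes its groups did not overlap and Eomes+ was higher, which made it the only member higher in that way.

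Nfatc3, which acts beside Nfatc2 and is strongly expressed in developing T cells, differed by 0.09 log2 (1419976_s_at, SE 0.29, 95% interval -0.60 to 0.79) and by -0.15 (1452497_a_at, SE 0.42). Probe set 1419976_s_at read 10.42, 10.45 and 9.91 log2 on the Eomes+ arrays, against 10.65, 10.13 and 9.72 on the Eomes- arrays, the smallest spread among the brightest probe sets of the 5 tested genes. Probe set 1452497_a_at lay between 7.99 and 9.39 in Eomes+ and between 8.41 and 9.29 in Eomes-. Of the other NFAT genes, Nfatc4 differed by 0.21 log2 (SE 0.83). Nfat5, the salt-responsive member that calcineurin does not control, differed by -0.44 (SE 0.24, 95% interval -1.02 to 0.14; limma adjusted p = 1.00), and its 5 other probe sets by -0.88 to -0.26.

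Nfatc2 and Nfatc3 are the tested members for which RefSeq promoter windows were at hand (build GRCm38.p6, 250 bases before to 50 after a start site). The windows at their outermost starts are shown to place the NFAT recognition core in genes that encode NFAT proteins. Capitals mark GGAAA or its reverse complement TTTCC. The first is chr2:168601608-168601907, minus strand, with 3 matches, and the second chr8:106058568-106058867, plus strand, with 1.
Nfatc2: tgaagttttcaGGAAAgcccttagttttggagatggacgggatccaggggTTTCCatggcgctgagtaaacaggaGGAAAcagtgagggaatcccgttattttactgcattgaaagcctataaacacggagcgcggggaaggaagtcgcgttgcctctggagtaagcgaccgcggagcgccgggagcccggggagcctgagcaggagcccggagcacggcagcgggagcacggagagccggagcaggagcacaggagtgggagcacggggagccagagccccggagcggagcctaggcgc
Nfatc3: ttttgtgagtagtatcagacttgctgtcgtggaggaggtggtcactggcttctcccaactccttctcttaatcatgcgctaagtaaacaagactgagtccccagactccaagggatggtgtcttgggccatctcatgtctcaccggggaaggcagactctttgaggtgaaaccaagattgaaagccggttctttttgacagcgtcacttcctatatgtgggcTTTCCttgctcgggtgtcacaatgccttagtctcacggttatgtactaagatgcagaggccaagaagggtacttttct
Of 32851 such windows of all genes, 61.3% hold this core, so a match is common. The T-box motif TCACACC (or GGTGTGA) is in 3.98% of windows and in neither of these. Matches are letters in a window, not bound sites.

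**Figure D3:**
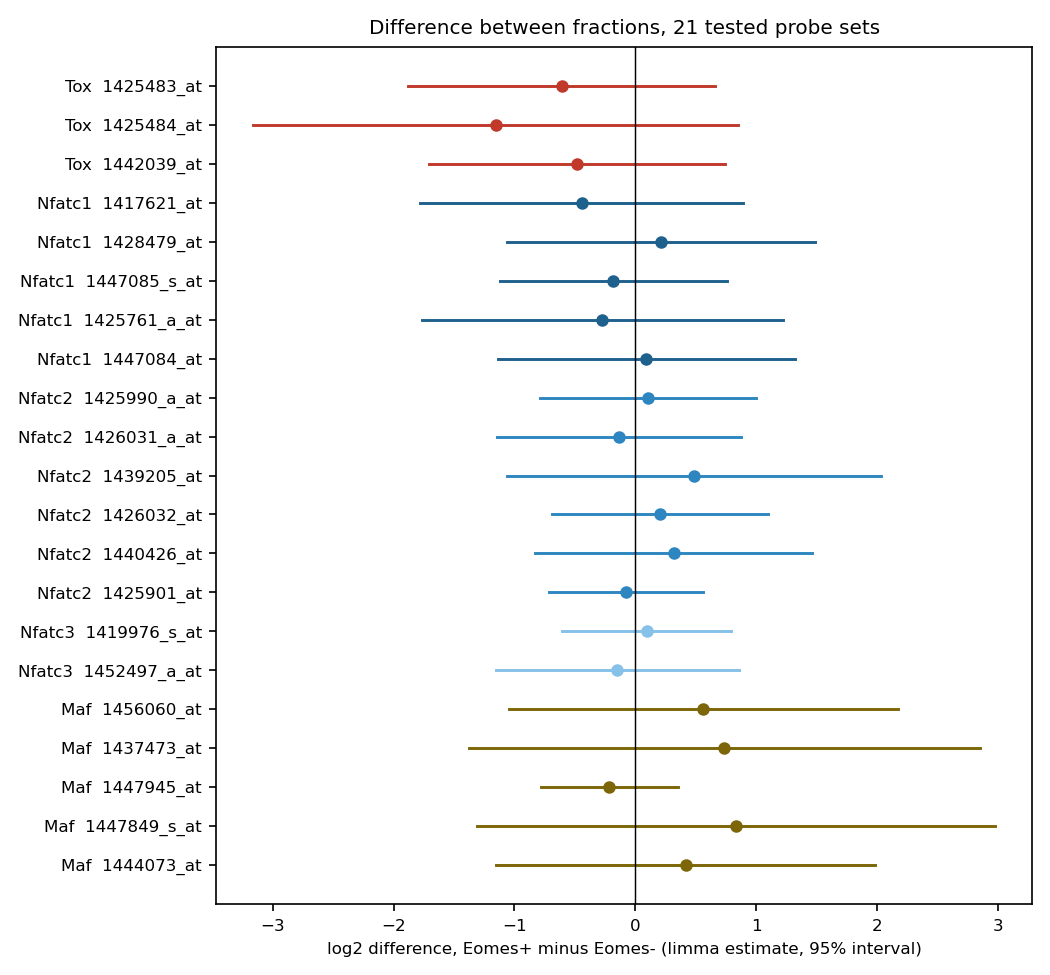
Log2 difference, Eomes+ minus Eomes- (x axis), with its 95% interval from limma for the 21 tested probe sets (y axis). All intervals, from the fit without a replicate block, include 0. The 3 Tox estimates lie below 0, and the NFAT estimates lie between -0.44 and 0.49.

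Maf had a higher Eomes+ mean at 4 of its 5 tested probe sets. The brightest, 1456060_at, read 7.95, 9.09 and 9.72 log2 on the Eomes+ arrays, against 7.91, 7.51 and 9.65 on the Eomes- arrays. Array 1 of both fractions was low and array 3 of both was high, so Eomes+ array 2 (9.09) and Eomes- array 2 (7.51) make most of the difference of 0.56 log2 (SE 0.68, 95% interval -1.05 to 2.18; limma adjusted p = 1.00). It was 0.05 without both arrays numbered 2 and 1.21 without Eomes- array 3. Probe set 1437473_at had 7.04, 8.86 and 9.17, against 6.55, 6.90 and 9.40, a difference of 0.74 (SE 0.89).

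The dimmer Maf probe sets were less informative. Probe sets 1447849_s_at (0.83 log2, SE 0.90) and 1444073_at (0.42, SE 0.66) were above the filter level on 2 Eomes+ arrays and 1 Eomes- array each. Probe set 1447945_at hardly varied, at 6.56 to 6.84 in Eomes+ and 6.76 to 7.08 in Eomes-, and differed by -0.21 (SE 0.24). Probe set 1435828_at, not tested, ranged from 4.08 to 5.91 in Eomes+ and from 3.80 to 7.15 in Eomes-.

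The Maf probe sets 1437473_at and 1447849_s_at followed the order of other cells' markers over the arrays. On Eomes+ arrays 1, 2 and 3 the fibroblast and macrophage lists rose in that order, as did both probe sets. The same held on the Eomes- arrays. Probe set 1447849_s_at, partly below the filter level, read 4.88, 6.39 and 7.17 log2 in Eomes+, against 4.21, 4.58 and 7.14 in Eomes-. The brightest probe set, 1456060_at, kept that order in Eomes+ but not in Eomes-, 1444073_at kept it in neither fraction, and 1447945_at hardly varied. Of these markers, 20 of 22 fibrosarcoma and fibroblast genes and 18 of 20 macrophage genes had the higher mean in Eomes+, with medians of 0.30 and 0.26 log2, against a median of -0.02 over all 12571 tested genes. Without Eomes+ array 3 these medians were -0.22 and -0.30. The part of other cells' RNA in the Maf values was not tested. The small MAF proteins, bZIP partners without an activation domain, gave differences of 0.46 log2 for Maff (SE 0.31), -0.20 for Mafg (SE 0.37) and -0.01 for Mafk (SE 0.31). Nrl, another large MAF gene, was below the filter level on all 6 arrays and was not tested.

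The genes whose profile over the 6 arrays was closest to each member, by the root mean square difference of centred log2 signals, differed between members. For Tox they were Rhof, a small GTPase gene (0.09 log2), the glucose transporter gene Slc2a3 (0.11) and Sh2d2a, a T cell adaptor gene (0.12), where the median gene stood 0.74 away. For Nfatc1 they were Cd96, an inhibitory receptor gene (0.04), Tbx21, which encodes T-bet (0.05), and Il7r (0.07). For Maf they were the collagen gene Col27a1 (0.10), Acvrl1, a BMP receptor gene of endothelium (0.16), and Lmo4 (0.17), with the median gene at 0.95. Nfatc2 lay closest to Cdca7l (0.04) and Nfatc3 to Sepsecs (0.04). These likenesses describe 6 arrays that share their differences in T cell signal.

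The genes around NFAT were set beside the members by lists, with the brightest probe set for each gene. None of the tested genes of any pathway list passed limma over all probe sets, in either direction (0 of each list; background 0% of 12571 genes). At an unadjusted p under 0.05 the background was 3.13% of genes, the groups did not overlap for 7.71%, and the Eomes+ mean was lower for 52.6%. The calcium and calcineurin side lay near the median of all genes, with list medians whose sign depended on the arrays used (-0.14 log2 for calcium entry without Eomes- array 3, and 0.14 for the inhibitors without Eomes+ array 3) or, for calcineurin and calmodulin, on the probe sets and scale. Store-operated calcium entry, which feeds calcineurin, had 12 of 13 genes tested, with 7 higher and 5 lower means in Eomes+, a median of 0.07 log2 and 0 at an unadjusted p under 0.05. The calcium sensors Stim1 and Stim2 differed by 0.22 (SE 0.32) and 0.10 (SE 0.28), and the channel genes Orai1 and Orai2 by -0.43 (SE 0.44) and -0.49 (SE 0.45). Kcna3, the Kv1.3 potassium channel gene, differed by -0.64 (SE 0.38).

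Of 8 calcineurin and calmodulin genes 4 were tested, 1 higher and 3 lower, with a median of -0.13 log2 and 0 at an unadjusted p under 0.05. That median was -0.32 without Eomes- array 3, -0.39 with array weights, 0.087 with each gene's probe sets averaged and 0.067 after centring on T cell genes. The catalytic subunit genes differed by 0.19 (Ppp3ca, SE 0.22), -0.35 (Ppp3cb, SE 0.24) and -0.06 (Ppp3cc, SE 0.41), and the regulatory subunit gene Ppp3r1 by -0.19 (SE 0.28). The other probe sets of Ppp3cb, Ppp3cc and Ppp3r1 differed in the opposite direction.

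The inhibitor list held calcineurin inhibitors, kinases that return NFAT to the cytoplasm and other signalling genes such as Sla2, Dgka, Dgkz, Akap13 and Homer3. This mixed list had 15 of 19 genes tested, 7 higher and 8 lower, with a median of -0.05 log2. Rcan1, a calcineurin inhibitor that NFAT itself induces, differed by 0.04 (SE 0.61), Rcan3 by -0.50 (SE 0.43) and Cabin1, another calcineurin inhibitor, by -0.39 (SE 0.24). The kinase genes Gsk3b and Dyrk1a differed by -0.07 (SE 0.16) and -0.09 (SE 0.36). Dyrk2, a kinase of the same family, was the 1 gene at an unadjusted p under 0.05, at 0.54 log2 (SE 0.22), and its 3 other probe sets differed by 0.71, 0.16 and -0.03. Rcan2 lay at 3.89 to 4.66 log2 on all 6 arrays and was not tested.

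The genes downstream of NFAT and around TOX had lower medians in Eomes+. Of 13 factors induced with NFAT or linked to TOX, 13 were tested and 10 had the lower mean, with a median of -0.55 log2 and 3 at an unadjusted p under 0.05. Irf4, a factor induced by receptor signalling that takes part in exhaustion, read 8.46, 8.01 and 6.60 log2 on the Eomes+ arrays, against 9.91, 9.84 and 8.66 on the Eomes- arrays, so the groups did not overlap (difference -1.78, SE 0.57; limma adjusted p = 1.00). Egr3, which NFAT induces, read 8.12, 7.51 and 7.92, against 8.96, 8.23 and 8.63, also without overlap (-0.75, SE 0.30), and Bhlhe40 differed by -0.69 (SE 0.24). Batf, an AP-1 partner, differed by -0.82 (SE 0.53). The NR4A receptor genes, induced by NFAT and placed with TOX in exhaustion, differed by -0.09 (Nr4a1, SE 0.31), -0.55 (Nr4a2, SE 0.25) and -0.19 (Nr4a3, SE 0.41). The other tested probe sets of Nr4a2 differed by -0.97 to -0.16 and those of Nr4a3 by -0.81 and -0.58. Egr2 and Ikzf2 differed the other way, by 0.36 (SE 0.25) and 0.32 (SE 0.79).

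Inhibitory receptor genes had 8 of 11 members tested, 6 with the lower mean in Eomes+, a median of -0.95 log2 and 2 at an unadjusted p under 0.05. Pdcd1, which encodes PD-1, differed by -1.48 (SE 0.54), the TIM-3 gene Havcr2 by -1.26 (SE 0.37) and Lag3 by -1.55 (SE 0.67). Btla and Cd160 differed the other way, by 0.68 (SE 0.47) and 0.21 (SE 0.52). The groups overlapped at Pdcd1 and Lag3 and did not at Havcr2, with 9.03, 9.22 and 8.59 log2 on the Eomes+ arrays, against 10.55, 10.63 and 9.45 on the Eomes- arrays. NFAT-dependent cytokine and ligand genes had the lower mean in 10 of 10 tested genes of 14, with a median of -1.0 log2 and 3 at an unadjusted p under 0.05. Among them Ifng differed by -1.02 (SE 0.62). Il2 read 5.53, 7.33 and 5.98 log2 on the Eomes+ arrays, against 7.13, 10.30 and 7.78 on the Eomes- arrays, and its first Eomes+ value lay below the filter level, so its fold is not given. Cd40lg, counted among the 10, among the 3 and in the median, was above the filter level on 0 Eomes+ arrays and 3 Eomes- arrays. It was tested only through the group where it was high. Its direction was thus set by the filter, it adds no weight to these counts, and no fold is quoted. Il10, a gene that MAF activates, and Il21 were below the filter level on all 6 arrays. In these 3 lists the medians were -0.35, -0.69 and -0.49 log2 without Eomes+ array 3, and -0.74, -1.44 and -1.44 without Eomes- array 3.

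A list of genes linked to progenitor T cells went the other way. Of its 11 tested genes (of 14), 9 were higher in Eomes+, with a median of 0.56 log2 and 2 at an unadjusted p under 0.05. Lef1 differed by 1.76 (SE 0.57) and S1pr1, the egress receptor gene, by 1.17 (SE 0.33), both without overlap, and Tcf7 was not analysed here. The Gapdh 3' to 5' signal ratio, a sign of RNA quality, was 1.74 ± 0.17 log2 in Eomes+ and 1.24 ± 0.26 in Eomes- (SD, n = 3 each). For the mean of the Gapdh and Actb ratios, 0.93 ± 0.08 in Eomes+ and 0.65 ± 0.11 in Eomes-, p was 0.1 by a two-sided exact permutation test, as low as 3 against 3 can go. The Actb ratio alone was 0.13 ± 0.04 log2 in Eomes+ and 0.05 ± 0.06 in Eomes- (p = 0.2 by the same exact permutation test). The part of RNA quality in the differences above was not tested.

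**Figure D4:**
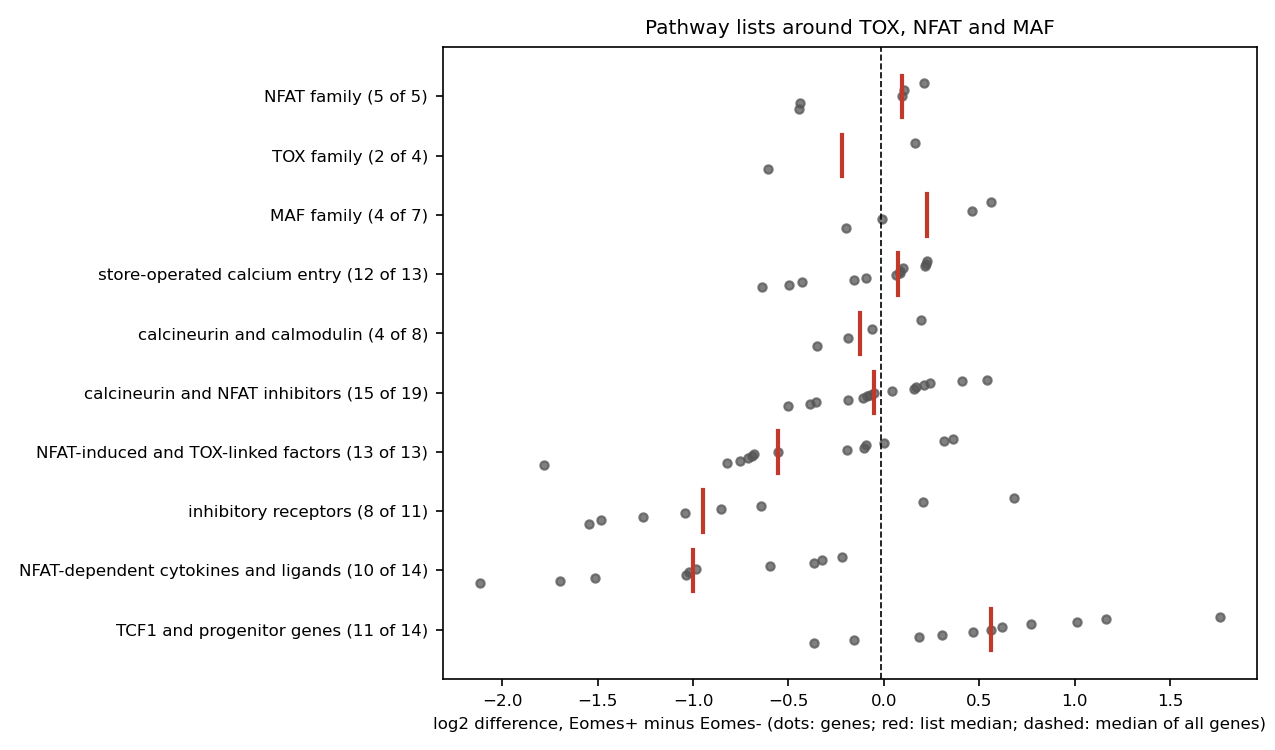
Each grey dot is a gene's log2 difference, Eomes+ minus Eomes- (x axis), by list (y axis, with tested and listed numbers of genes); red bars are list medians and the dashed line the median of all genes (-0.02). The calcium, calcineurin and inhibitor lists lie around the dashed line, and the 3 lists of induced factors, inhibitory receptors and cytokines lie to its left, with medians of -0.55, -0.95 and -1.0.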

How the data were processed

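The authors deposited log2 signals for 45101 probe sets on 6 arrays, between 1.68 and 14.95. That scale was read from the values. The submitters' processing notes list Transcriptome Analysis Console and MAS5 with no version or role, so how probes were summarised is unknown here. Precision is limited by the number of arrays. Gene symbols came from the platform annotation, updated by gene identifier with RefSeq (GRCm38.p6). After 64 control probe sets were removed, the filter (over the 40th percentile on 3 or more arrays) kept 27766 probe sets and 12571 genes. Two-sided tests used limma 3.58.1 (R 4.3.3, moderated variance with a trend on intensity), Benjamini-Hochberg adjustment over all kept probe sets and a threshold of 0.05. The brightest kept probe set stood for a gene. Genes named from lists were a chosen set plus the 2 of smallest p in each pathway list. Members, lists and tests were chosen with earlier results of these data known. In simulated data on 27766 probe sets for this comparison, 0% of differences of 1 log2 were called, 42% of 2 and 72% of 3, with 3 false calls. The simulated noise was independent between probe sets, whereas the real arrays shared differences in T cell signal. These shares may therefore be too high for the real arrays, where Eomes, at 3.15 log2, did not pass. Alternatives varied the filter, offset, normalization, probe set choice, variance model, covariates, replicate block and arrays left out.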

Additional observations from a re-analysis of the deposited data

How the results depend on the processing

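No member probe set passed in any alternative run, and Tox kept the lower Eomes+ mean at every probe set fitted in each. Runs with 1 value per gene fitted a single Tox row in place of the 3 probe sets. With 3 arrays a group, 0% of simulated differences of 1 log2 were called. Probe sets called over the whole table numbered 0, except 74 with array weights and 17 with a replicate block and the brightest probe set per gene, a combination chosen after seeing the data. Eomes passed in both of these (2.92 log2 with array weights), and Lag3 and Lef1 in the second.

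Replicate numbers were checked as a pairing. Deviations of same-numbered arrays from their group means correlated at 0.595, 0.0989 and 0.628, and the second narrowly missed the limit of 0.1. Those of differently numbered arrays correlated between -0.619 and 0.302. Whether the arrays are pairs is therefore not settled. The replicate block alone called 0 probe sets and 0 members (smallest member adjusted p = 0.221 by limma, Tox 1425484_at), with 3 of 21 members at an unadjusted p under 0.05, against 2748 of all 27766 probe sets. These were Tox 1425484_at (unadjusted p = 0.00155) and 1425483_at (0.00918) and Nfatc1 1417621_at (0.0274), where the limma fit without the block gave 0.214, 0.293 and 0.457.

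Signs turned as follows, in log2; the cause was not tested. Centring on T cell genes gave 0.013 for Nfatc1 1447085_s_at, 0.058 and 0.12 for Nfatc2 1426031_a_at and 1425901_at, 0.046 for Nfatc3 1452497_a_at, 0.13 for Ppp3cc, 0.0061 for Ppp3r1, 0.12 for Gsk3b, 0.11 for Dyrk1a and 0.10 for Nr4a1. Averaging probe sets gave -0.027 for Nfatc3, 0.053 for Ppp3cb, 0.11 for Ppp3cc, 0.065 for Ppp3r1 and -0.070 for Rcan1. Array weights gave -0.39 and -0.38 for Nfatc1 1428479_at and 1447084_at, -0.14, -0.042 and 0.11 for Nfatc2 1425990_a_at, 1426032_at and 1425901_at, and 0.092 for Gsk3b. A covariate for other cells' RNA gave 0.0072 for Nfatc2 1426031_a_at, -0.11 for Nfatc4, 0.070 for Ppp3cc, -0.19 for Rcan1 and 0.028 for Dyrk1a.

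With arrays left out, the members whose sign turned ranged as Maf 1444073_at -0.067 to 1.17, Nfatc1 1417621_at -0.97 to 0.0059, Nfatc1 1425761_a_at -0.90 to 0.15, Nfatc1 1428479_at -0.27 to 0.58, Nfatc1 1447084_at -0.46 to 0.45, Nfatc1 1447085_s_at -0.58 to 0.15, Nfatc2 1425901_at -0.20 to 0.15, Nfatc2 1425990_a_at -0.17 to 0.41, Nfatc2 1426031_a_at -0.54 to 0.14, Nfatc2 1426032_at -0.085 to 0.43, Nfatc2 1439205_at -0.25 to 0.92, Nfatc3 1419976_s_at -0.13 to 0.34, Nfatc3 1452497_a_at -0.47 to 0.23. Other genes ranged as Dyrk1a -0.44 to 0.14, Gsk3b -0.18 to 0.037, Ikzf2 -0.38 to 0.95, Mafg -0.44 to 0.097, Nfatc4 -0.41 to 1.02, Nr4a1 -0.37 to 0.11, Nr4a3 -0.66 to 0.26, Orai1 -0.87 to 0.087, Ppp3cc -0.39 to 0.29, Ppp3r1 -0.41 to 0.078, Rcan1 -0.41 to 0.62, Stim1 -0.033 to 0.43, Stim2 -0.14 to 0.26, Tox4 -0.19 to 0.49.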
